A study of Xenopus laevis with 16 samples.

Results

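Genes for the enzymes, receptors and binding proteins of retinoic acid signalling were described in amputated Xenopus laevis hindlimbs at 2 larval stages. Members were the array probe sets annotated with exactly 1 symbol whose name, without the suffix of the L or S chromosome copy, was aldh1a2, cyp26a1, rara, rarb, rarg, rxra, rxrb, rxrg, crabp1 or crabp2. A probe set is a group of short array probes read as a single signal. Of 15491 non-control probe sets, 9304 of them with 1 symbol, 12 met the rule, for 10 genes with the L and S copies counted apart. They covered 8 of the 10 names. No probe set with 1 symbol was found for rarb or crabp1, and 1 probe set shared by rxrb.L and rxrb.S was left out.

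The study asked which genes differ between a limb that regenerates after amputation (stage 53) and a limb that no longer does (stage 57). Limbs were cut through the middle of the zeugopod, the lower leg, on 1 or both sides, and tissue was taken 1 mm proximal to the cut. Each stage was sampled 1 day and 5 days after amputation, which makes 4 groups, with 4 arrays in each. The labels name no strain, genotype or further treatment, no uncut limb was analysed here, and all groups share the amputation, so values below set stages and days apart and do not measure the response to the cut. The labels do not say whether the replicates came from separate animals or pools, and the p-values then measure only how far these samples scatter, which may be technical.

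Retinoic acid is made from vitamin A in sequential oxidations, of which the last, from retinaldehyde, is carried out in the embryo mainly by aldh1a2. Small binding proteins such as crabp2 carry it in the cell, receptors of the RAR family bind it on DNA as partners of an RXR receptor, and cyp26a1 oxidises and so removes it. In vertebrate limbs retinoic acid is best known as a signal of proximal identity, and in regenerating amphibian limbs added retinoids can make a stump regrow structures that lie proximal to the cut.

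Of the 8 tested members, 3 differed between the stages when both days were averaged, where 16.6% of all tested probe sets did (limma adjusted p below 0.05). The receptor gene rarg.S was 1.89-fold higher at stage 53, while the receptor gene rara.L and a probe set of the synthesis gene aldh1a2.L were 1.82-fold and 1.86-fold lower at stage 53 than at stage 57. No member was called for the day after amputation at either stage. Of all probe sets 0.121% were called for the day at stage 53 and 0.0% at stage 57. Without 3 stage 57 arrays that stood apart in a beta-actin control ratio, the averaged receptor differences were smaller and lost their call. The averaged aldh1a2.L difference kept its size and call without them. Over all settings and leave-outs tried it ran from -1.02 to -0.48 on the log2 scale. At 5 days alone the log2 difference of rara.L was -1.07 and not called with 16 arrays. Without the 3 arrays it was -1.01 and called, where 15.8% of all probe sets were called. All 3 averaged calls were close to the threshold and were lost when certain single arrays were left out. Over the settings and leave-outs tried, aldh1a2.L was called in 15 of 24, rara.L in 19 of 24 and rarg.S in 17 of 25. The other aldh1a2.L probe set was called in 0 of 24.

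Those 3 arrays were set apart by beta-actin, read by probe sets at both ends of its transcript. The signal at the 3′ end over that at the 5′ end rises when 5′ ends are lost or incompletely copied. On the log2 scale this ratio was 4.70 and 4.76 on replicates 2 and 3 of stage 57 at 1 day and 5.72 on replicate 2 of stage 57 at 5 days, against 0.01 to 2.38 on the other 13 arrays. All 8 stage 53 arrays lay between 0.01 and 1.25. Averaged stage differences and counts of calls are therefore given with all 16 arrays and, where the member was still tested, without the 3, which was chosen after the data were seen. The files hold signals and not counts, so precision is limited by the number of arrays.

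**Figure D1:**
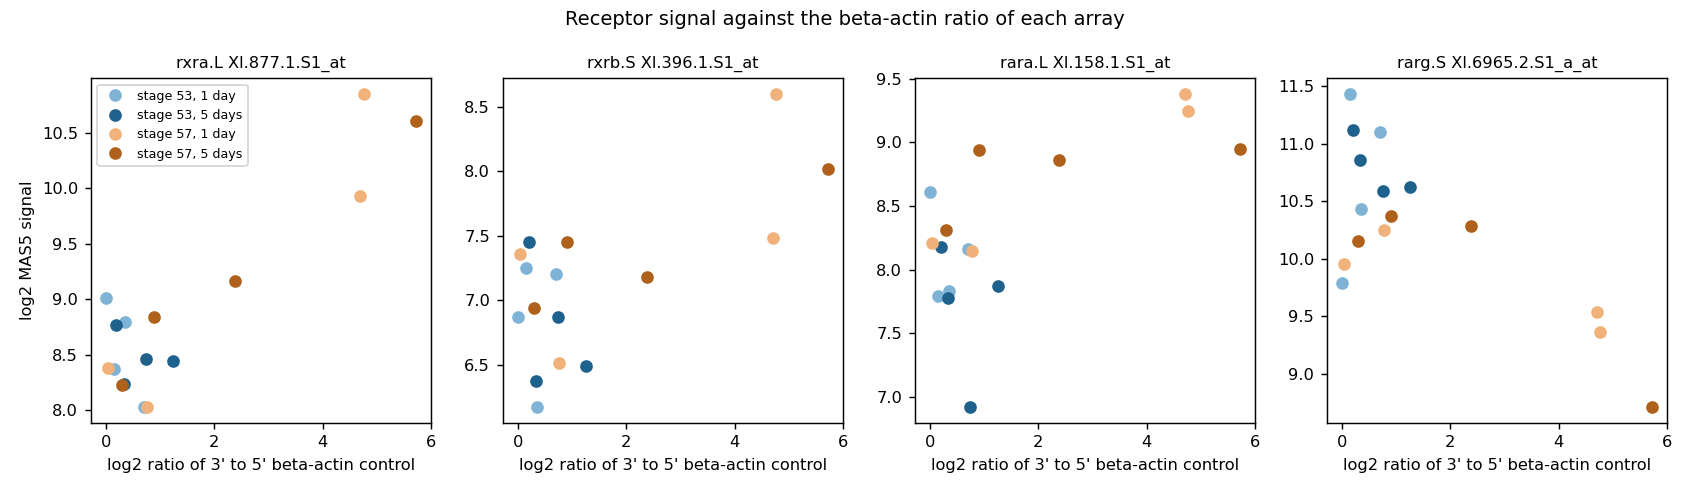
The log2 signal (vertical axis) of rxra.L, rxrb.S, rara.L and rarg.S against the 3′ over 5′ beta-actin signal ratio on the log2 scale (horizontal axis). Each of the 16 arrays is a point, coloured by group. The 3 stage 57 arrays with a ratio above 4 stand clear of the other 13, which reach 2.38.

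Markers of several cell types differed between the stages. Summed signal of 12 skeletal muscle genes ran from 6135 to 9686 and from 5080 to 6750 at stage 53 (1 and 5 days), and from 22082 to 67771 and from 26863 to 83402 at stage 57. In limma, 10 of the 12 muscle genes were lower at stage 53 with both days averaged, and 10 of 12 without the 3 arrays. Summed signal of 7 limb mesenchyme genes was 9062 to 13183 and 9290 to 11833 at stage 53, against 4457 to 7566 and 5794 to 9579 at stage 57. Of 6 of these that were tested, 1, the hindlimb gene pitx1.L, was called higher at stage 53 with both days averaged. Without the 3 arrays 2 of the 6 were called higher and 0 lower. Much of the mesenchyme sum came from pdgfra.L, at 5681.6 to 9111.1 and 4087.3 to 6888.9 at stage 53. At stage 57 pdgfra.L had 590.8 to 4867.9 and 2191.6 to 6102.8. Its averaged log2 difference of 1.05 was not called (limma adjusted p = 0.0505). The other uncalled mesenchyme differences ran from -0.13 for meox2.S to 0.45 for hoxa11.S, so the sums do not show a shift shared by all these genes. Of the mesenchyme markers, prrx1, prrx2 and twist1 matched no probe set with 1 symbol, and the hindlimb gene tbx4.L lay between 46.4 and 228.3. Of 7 epidermal genes 5 were higher and 1 lower at stage 53, and of 6 cartilage genes 3 were lower. Without the 3 arrays 4 epidermal genes were higher and 1 lower, and 3 cartilage genes were lower. No marker was at 0, since the lowest signal in the whole table was 0.6. The part of tissue make-up in any result below was not tested, and in bulk tissue fewer cells of a type and less RNA per cell cannot be told apart.

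The members spanned much of the signal range of the array. A probe set was tested if its mean log2 signal over the 16 arrays was above the 25th percentile, which was 6.60 (a signal of 97.1), and 11618 probe sets passed. Of the members 8 passed and 4 did not. The nearest above was rxrb.L (mean log2 signal 6.71) and the nearest below was crabp2.L (6.52). The 4 dim members are given by their values, with a test from a fit without the filter.

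Of the 8 tested members, 3 were called in limma for the stage difference averaged over both days at an adjusted p below 0.05, 1 of them higher and 2 lower at stage 53. Among all tested probe sets 16.6% were called, 9.36% higher and 7.26% lower, so that the 37.5% of members rests on 3 probe sets. At 1 day alone 0 of 8 members were called by limma, against 2.55% of all, and 3 had an unadjusted p below 0.05, against 18.1% of all. At 5 days alone 0 of 8 were called by limma, against 7.37% of all, and 2 had an unadjusted p below 0.05, against 22.6% of all. The median log2 difference (stage 53 minus stage 57) over the 8 members was -0.68 at 1 day, -0.60 at 5 days and -0.67 averaged, where all tested probe sets had 0.04, 0.10 and 0.07. Without the 3 arrays crabp2.L passed the filter in place of rxrb.L, and the medians over the 8 members then tested were -0.07, -0.38 and -0.37. In that fit limma called 0 of 8 members at 1 day, against 2.12% of all, and 1 of 8 averaged over both days, against 16.1%.

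**Figure D2:**
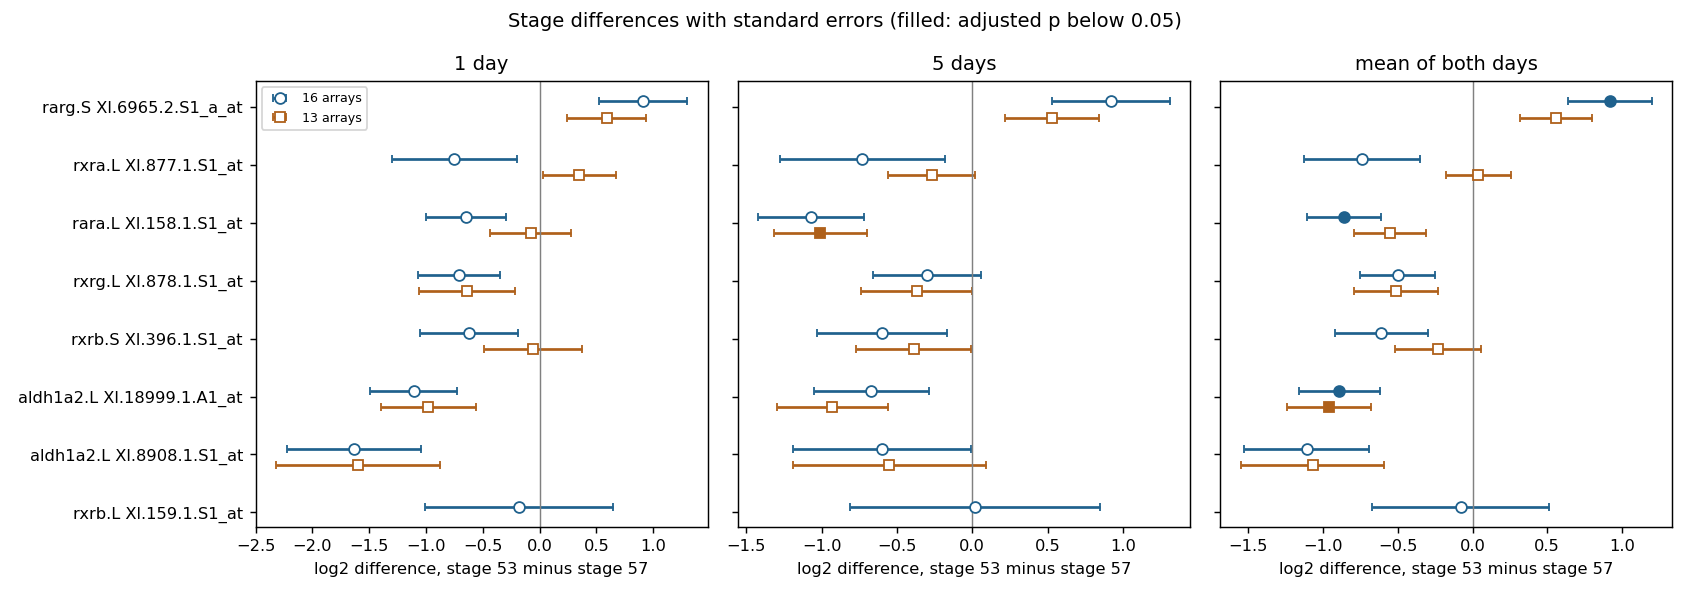
Log2 difference (stage 53 minus stage 57) with its standard error for the 8 tested members, from the fit to 16 arrays and from the fit to 13 arrays. For rxrb.L, under the filter with 13 arrays, only the former is shown. With 16 arrays only rarg.S lies well above 0, and the difference of the rxra.L probe set goes from -0.74 averaged over both days to 0.04 with 13 arrays.

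Synthesis came first in the pathway order. The gene aldh1a2.L was read by 2 probe sets. On probe set Xl.18999.1.A1_at the signals at stage 53 were 115.0, 76.1, 85.3 and 56.6 at 1 day and 95.3, 132.1, 61.9 and 131.1 at 5 days. At stage 57 they were 212.8, 185.2, 197.6 and 119.3 at 1 day and 183.8, 93.2, 215.2 and 177.9 at 5 days. Every stage 57 array at 1 day lay above every stage 53 array of that day, by a narrow margin, while at 5 days a low stage 57 array made the groups overlap.

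As mean log2 signals (SD, n = 4), this probe set of aldh1a2.L rose in order from stage 53 at 1 day, 6.33 ± 0.42, through stage 53 at 5 days, 6.65 ± 0.52, and stage 57 at 5 days, 7.32 ± 0.53, to stage 57 at 1 day, 7.45 ± 0.38. Within a stage the 2 days differed by less than an SD. Averaged over the days, the log2 difference was -0.89 (SE 0.27, limma adjusted p = 0.0308). The differences were -1.11 (SE 0.38, limma adjusted p = 0.143) at 1 day and -0.67 (SE 0.38, limma adjusted p = 0.313) at 5 days. Without the 3 arrays the averaged difference was -0.96 (SE 0.28, limma adjusted p = 0.0317), as large as with them, with -0.98 at 1 day and -0.93 at 5 days. Over the other settings and leave-outs tried, it was called in 15 of 24, with limma adjusted p from 0.0146 to 0.0671. The difference ran from -1.02 to -0.48 over these. Its smallest size came with a change of processing and not with a single array left out. The call was lost without replicate 2, 3 or 4 of stage 53 at 1 day, replicate 3 of stage 53 at 5 days, replicate 2 of stage 57 at 1 day, or replicate 1, 3 or 4 of stage 57 at 5 days. The difference then ran from -0.91 to -0.78 (limma adjusted p from 0.0504 to 0.0671), and under quantile normalization it was -0.84 (limma adjusted p = 0.0606).

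The second probe set of aldh1a2.L, Xl.8908.1.S1_at, had signals of 90.1, 12.0, 71.9 and 87.4 at stage 53 and 1 day, and 59.2, 141.0, 156.6 and 128.5 at 5 days. At stage 57 it had 196.5, 103.4, 248.5 and 122.4 at 1 day, and 294.3, 193.5, 110.7 and 141.1 at 5 days. The stage groups again did not overlap at 1 day and overlapped at 5 days. A single stage 53 array, at 12.0, lay far below its group. The averaged log2 difference was -1.11 (SE 0.42) and missed the threshold (limma adjusted p = 0.0757), and without the 3 arrays it was -1.07 (limma adjusted p = 0.142). Both probe sets thus gave a negative difference at each day, and their log2 signals had a Pearson r of 0.49 over the 16 arrays, given as a description. At 1 day these were the only 2 of 8 tested members whose stage groups did not overlap, against 9.19% of all tested probe sets, and they read the same gene.

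**Figure D3:**
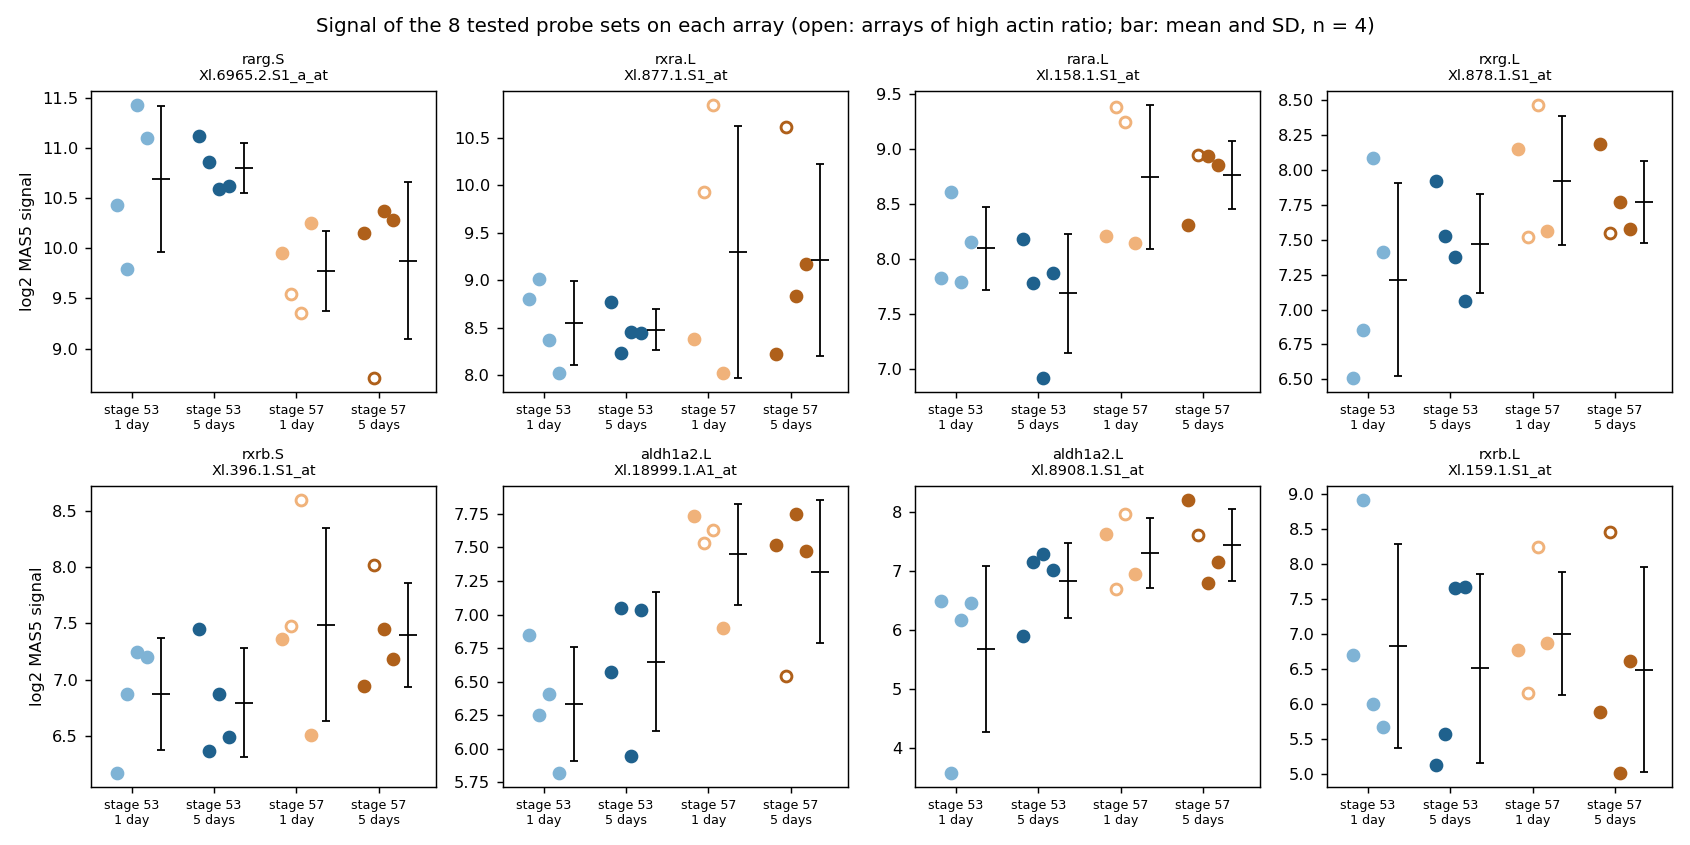
The log2 signal (vertical axis) for the 8 tested members, one point per array, in the 4 groups, with the 3 arrays of high beta-actin ratio marked. The 2 aldh1a2.L probe sets do not overlap between stages at 1 day, nor do rarg.S and rara.L at 5 days.

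Averaged over both days on all arrays, both RAR receptor genes with a probe set were called between the stages, in opposite directions. Neither averaged difference was called without the 3 arrays of high beta-actin ratio (limma adjusted p = 0.12 for rarg.S and 0.128 for rara.L). The log2 differences were then 0.56 for rarg.S and -0.55 for rara.L. The gene rarg.S encodes retinoic acid receptor gamma, which in mouse limb buds is expressed in cartilage-forming mesenchyme. Its probe set Xl.6965.2.S1_a_at gave signals of 1382.2, 886.3, 2758.0 and 2190.3 at stage 53 and 1 day, and 2229.7, 1858.8, 1540.0 and 1576.6 at 5 days. At stage 57 the signals were 986.2, 742.0, 655.2 and 1221.9 at 1 day, and 1133.8, 419.2, 1327.1 and 1243.3 at 5 days. At 5 days every stage 53 array was above every stage 57 array, and at 1 day a stage 53 array of 886.3 fell among those of stage 57.

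Mean log2 signal of rarg.S (SD, n = 4) was 10.69 ± 0.73 and 10.80 ± 0.25 at stage 53 (1 and 5 days) and 9.77 ± 0.41 and 9.88 ± 0.78 at stage 57. The days within a stage lay within an SD of each other. Averaged over the days, the log2 difference was 0.92 (SE 0.28, limma adjusted p = 0.0311). It was 0.91 at 1 day (SE 0.39, limma adjusted p = 0.234) and 0.92 at 5 days (SE 0.39, limma adjusted p = 0.168).

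The 3 arrays of high beta-actin ratio held the lowest 3 rarg.S signals of all 16. Without them the averaged rarg.S difference was 0.56 (SE 0.24, limma adjusted p = 0.12), with 0.59 at 1 day and 0.53 at 5 days. Over all settings and leave-outs rarg.S was called in 17 of 25, with limma adjusted p from 0.015 to 0.12. The call was lost without replicate 3 or 4 of stage 53 at 1 day, replicate 1 or 2 of stage 53 at 5 days, or replicate 2 or 3 of stage 57 at 1 day, where the difference ran from 0.79 to 0.91 (limma adjusted p from 0.051 to 0.0706). The share of RNA quality or incomplete copying in this difference was not tested.

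The gene rara.L encodes retinoic acid receptor alpha, the RAR found in most vertebrate tissues. Its probe set Xl.158.1.S1_at gave signals of 226.8, 390.7, 220.9 and 286.5 at stage 53 and 1 day, and 290.6, 220.1, 121.4 and 234.0 at 5 days. At stage 57 the signals were 296.2, 666.4, 610.7 and 284.3 at 1 day, and 316.9, 493.7, 490.2 and 465.6 at 5 days. At 5 days every stage 53 array was below every stage 57 array. At 1 day replicates 1 and 4 of stage 57 lay within the stage 53 range, and the high values of that group were those of replicates 2 and 3.

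Mean log2 signal of rara.L (SD, n = 4) was lowest at stage 53 and 5 days, 7.69 ± 0.54, then 8.10 ± 0.38 at stage 53 and 1 day. It was 8.75 ± 0.66 and 8.76 ± 0.31 at stage 57 (1 and 5 days), which did not differ beyond their spread. The averaged log2 difference was -0.86 (SE 0.25, limma adjusted p = 0.0242). It was -0.65 (SE 0.35, limma adjusted p = 0.315) at 1 day and -1.07 (SE 0.35, limma adjusted p = 0.0689) at 5 days.

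The 3 arrays of high beta-actin ratio held the highest 3 rara.L signals. Without them the averaged difference of rara.L was -0.55 (SE 0.24, limma adjusted p = 0.128), and that at 1 day was -0.08. At 5 days the difference without those arrays was -1.01 (SE 0.31, limma adjusted p = 0.0397), so that rara.L was then the 1 member of 8 called at 5 days, against 15.8% of all probe sets. Over the settings and leave-outs the averaged rara.L difference was called in 19 of 24, with limma adjusted p from 0.0128 to 0.128. The averaged call was lost without replicate 3 of stage 53 at 1 day, replicate 3 of stage 53 at 5 days or replicate 2 of stage 57 at 1 day, with differences of -0.81, -0.74 and -0.76 (limma adjusted p = 0.0529, 0.0526 and 0.0551). The difference at 5 days was also called under median centring (-1.17, limma adjusted p = 0.0431) and without replicate 3 of stage 57 at 1 day (-1.07, limma adjusted p = 0.0469). At 5 days rarg.S and rara.L were the 2 of 8 tested members whose stage groups did not overlap, against 18.5% of all tested probe sets.

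Within each array, the log2 ratio of the rarg.S signal to the rara.L signal shows how these receptor genes stood against each other without regard to array scaling. Since probe sets differ in brightness, its size has no meaning of its own and only its change between arrays is read. At stage 53 the ratio was 2.61, 1.18, 3.64 and 2.93 at 1 day, and 2.94, 3.08, 3.67 and 2.75 at 5 days. At stage 57 it was 1.74, 0.16, 0.10 and 2.10 at 1 day, and 1.84, -0.24, 1.44 and 1.42 at 5 days. The stages overlapped at 1 day. Their separation at 5 days follows from that of each gene and adds nothing to it, and the pair was chosen after the values were seen. The lowest 3 ratios were those of the 3 arrays of high beta-actin ratio.

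RXR receptors are the obligate partners of the RARs and also pair with thyroid hormone, vitamin D and PPAR receptors. None of the 4 tested RXR probe sets was called in any comparison. Of all tested probe sets 16.6% were called averaged over both days, 2.55% at 1 day and 7.37% at 5 days. For the day and the change between stages the shares were at most 0.121%. With 4 probe sets, 0 calls is near these shares. The rxra.L probe set Xl.877.1.S1_at gave 446.6, 514.0, 331.7 and 260.8 at stage 53 and 1 day, and 436.7, 301.8, 353.0 and 349.9 at 5 days. At stage 57 it gave 332.6, 977.6, 1851.1 and 261.3 at 1 day, and 301.1, 1565.5, 457.2 and 577.4 at 5 days.

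The 3 high signals of rxra.L were those of the 3 arrays of high beta-actin ratio, and the other stage 57 arrays, at 261.3 to 577.4, covered nearly all of the stage 53 range of 260.8 to 514.0. The averaged log2 difference was -0.74 (SE 0.39, limma adjusted p = 0.193) with 16 arrays and 0.04 (SE 0.22, limma adjusted p = 0.925) with 13. The second rxra.L probe set, Xl.877.1.A1_at, was below the filter, ranged from 18.2 to 213.4, and had a Pearson r of 0.08 with the first over the 16 arrays. It was not high on the 3 arrays, with 92.7, 43.7 and 113.9, and its averaged difference in the fit without the filter was 0.63 (SE 0.41, limma adjusted p = 0.348). The 2 probe sets of rxra.L thus had opposite signs with 16 arrays, and neither difference was called.

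The rxrb.S probe set Xl.396.1.S1_at gave 71.9, 117.1, 151.9 and 147.1 at stage 53 and 1 day, and 175.0, 82.7, 117.0 and 89.7 at 5 days. At stage 57 it gave 164.0, 178.6, 387.7 and 91.4 at 1 day, and 122.4, 259.7, 174.3 and 145.5 at 5 days. The groups overlapped on both days, and the 3 arrays of high beta-actin ratio again held the highest 3 signals. For rxrb.S the averaged log2 difference was -0.61 (SE 0.31, limma adjusted p = 0.174), and -0.23 (limma adjusted p = 0.631) without them.

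The copy on the other subgenome, rxrb.L, was erratic within groups, from 51.2 to 482.8 at stage 53 and 1 day alone. Its averaged difference was -0.08 (SE 0.59, limma adjusted p = 0.937), and it fell under the filter when the 3 arrays were left out. The L and S copies of rxrb had a Pearson r of 0.17 over the 16 arrays.

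The gene rxrg.L, for the RXR with the most restricted expression in mammals, was read by Xl.878.1.S1_at. Its signals were 91.0, 115.4, 271.6 and 170.2 at stage 53 and 1 day, and 242.6, 185.4, 166.5 and 133.2 at 5 days. At stage 57 they were 283.8, 183.5, 355.7 and 188.7 at 1 day, and 291.3, 186.8, 218.0 and 191.0 at 5 days. Stage 57 arrays tended to the upper end, with overlap on both days. The averaged log2 difference of rxrg.L was -0.50 (SE 0.25, limma adjusted p = 0.174), and -0.51 (SE 0.28, limma adjusted p = 0.23) without the 3 arrays.

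The binding protein and the degrading enzyme were dim. For crabp2.L, probe set Xl.1154.1.S1_at gave 59.1, 233.6, 85.9 and 71.5 at stage 53 and 1 day, and 536.6, 434.6, 140.3 and 37.4 at 5 days. At stage 57 it gave 59.1, 44.8, 62.0 and 102.0 at 1 day, and 120.4, 10.4, 86.5 and 129.6 at 5 days. The 2 highest signals were stage 53 arrays at 5 days, but replicate 4 of that group was among the lowest of all. In the fit without the filter the difference was 1.61 (SE 0.83, limma adjusted p = 0.312) at 5 days and 1.10 (SE 0.59, limma adjusted p = 0.24) averaged. Without the 3 arrays crabp2.L passed the filter, with 0.76 (SE 0.73, limma adjusted p = 0.52) at 5 days and 0.53 (SE 0.56, limma adjusted p = 0.554) averaged.

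The gene cyp26a1 is itself switched on by retinoic acid in many vertebrate tissues. The probe set of cyp26a1.S, Xl.456.1.S1_at, gave 7.5, 16.1, 5.1 and 10.9 at stage 53 and 1 day, and 16.3, 66.3, 125.0 and 9.6 at 5 days. At stage 57 it gave 7.2, 11.6, 16.6 and 5.2 at 1 day, and 25.6, 22.0, 8.1 and 11.2 at 5 days. Its highest 2 signals were at stage 53 and 5 days, in a group that also held a signal of 9.6. In the fit without the filter, 5 days minus 1 day at stage 53 was 1.90 on the log2 scale (SE 0.82, limma adjusted p = 0.53).

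For cyp26a1.L, Xl.7015.1.A1_at ranged from 4.8 to 81.1, with all groups overlapping. The highest 3 signals of cyp26a1.L were on the 3 arrays of high beta-actin ratio, at 65.9, 81.1 and 46.8. Its averaged difference without the filter was -0.48 (SE 0.52, limma adjusted p = 0.605), and the L and S copies had a Pearson r of 0.12. At these signals a difference between groups could not be told from the spread of the arrays.

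**Figure D4:**
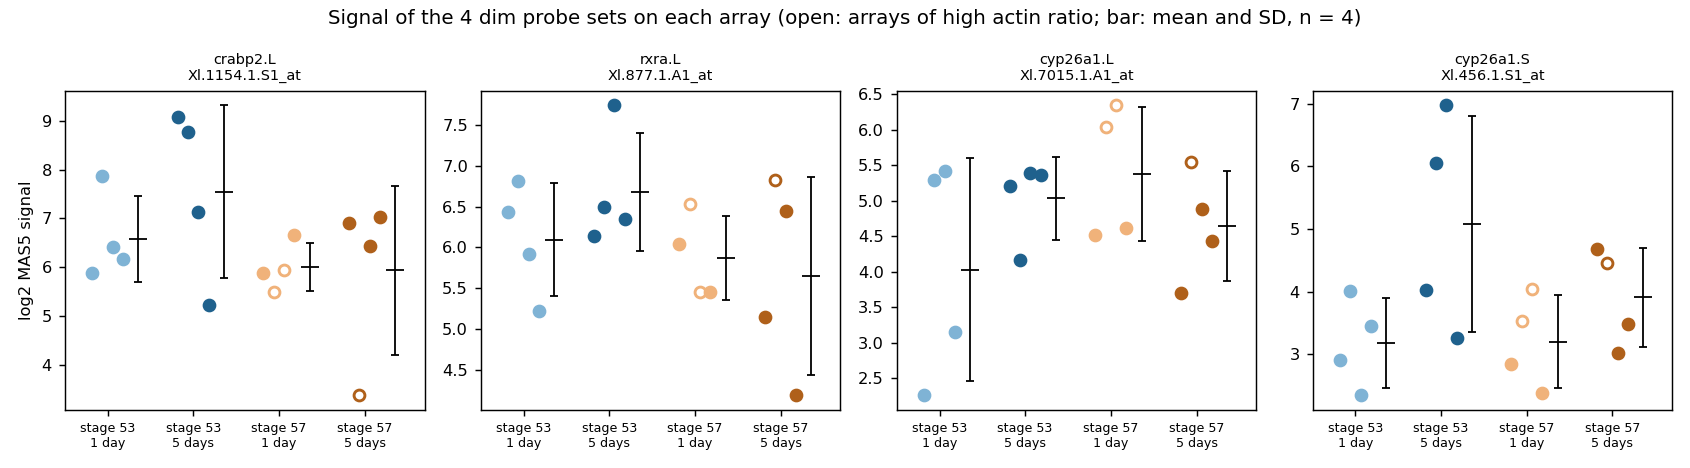
The log2 signal (vertical axis) for the 4 members below the filter, one point per array, in the 4 groups. Within single groups the signals spread widely, as for crabp2.L at stage 53 and 5 days, from 37.4 to 536.6.

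None of the tested members was called for the day after amputation. At stage 53, 0 of 8 were called by limma, against 0.121% of all probe sets, with log2 differences (5 days minus 1 day) from -0.41 for rara.L to 1.16 for the second aldh1a2.L probe set and a smallest adjusted p of 0.57. That 1.16 rests largely on the array at 12.0, and it was 0.46 without replicate 2 of stage 53 at 1 day. At stage 57, 0 of 8 were called by limma, against 0.0% of all, of which 237 had an unadjusted p below 0.05, and the differences ran from -0.51 to 0.13. The test of whether the day difference itself differed between stages gave limma calls for 0 of 8 members, against 0.0258% of all, with values from -0.42 to 1.03 and a smallest adjusted p of 0.997. Its highest value, 1.03 for the same aldh1a2.L probe set, was 0.33 without that array. Without the 3 arrays of high beta-actin ratio limma again called 0 of 8 members for the day at stage 53 (3.19% of all), for the day at stage 57 (0.0%) and for the change between stages (0.0%), with smallest adjusted p of 0.306, 1.0 and 0.788. With 16 arrays no member's days failed to overlap at either stage, against 11.1% of all probe sets at stage 53 and 0.835% at stage 57.

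Some genes had profiles close to those of the called members over the 16 arrays. By Pearson r of log2 signal, rarg.S was nearest to pafah1b3.S (0.95), rela.L (0.93) and igf1r.S (0.93). For rara.L the nearest were chst13.S (0.91), mtdh.S (0.90) and MGC82636 (0.88). For the brighter aldh1a2.L probe set they were adss1.L (0.84), matn2.L (0.82) and cavin4.S (0.82). These values rest on arrays that share stage, tissue make-up and beta-actin ratio, and are given as descriptions. No cyp26a1 probe set was bright enough to be ranked.

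Other genes of the retinoid pathway were called at 5 days. A list of 81 names, covering retinoid supply, synthesis and breakdown, coregulators, RXR partners and textbook targets of retinoic acid, matched 46 genes under 37 names, of which 32 were tested by their brightest probe set. At 5 days 5 of 32 were lower at stage 53 and 0 higher in limma (15.6%, against 3.89% of all probe sets called lower and 3.48% higher). The counts at 5 days without the 3 arrays of high beta-actin ratio were 5 lower and 4 higher, where 7.54% of all were called lower and 8.27% higher. With both days averaged, 2 were higher (6.25%, against 9.36% of all) and 5 lower (15.6%, against 7.26%). Averaged without the 3 arrays, 3 were higher and 5 lower, where 16.1% of all were called in either direction. At 1 day 1 was higher and 0 lower, against 0.99% and 1.56% of all. The list's median log2 difference was -0.06 at 1 day, 0.24 at 5 days and 0.16 averaged, so that the list's median and its lower calls at 5 days had opposite signs.

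Of these 5 genes, dhrs3.L encodes an enzyme that reduces retinaldehyde back to retinol and whose gene responds to retinoic acid in other vertebrates. Its signals were 407.7, 442.8, 492.8 and 335.4 at stage 53 and 1 day, and 555.1, 619.7, 292.0 and 149.0 at 5 days. At stage 57 dhrs3.L gave 1138.5, 991.4, 1936.4 and 1032.1 at 1 day, and 2261.5, 1352.9, 738.8 and 831.8 at 5 days. All 8 stage 53 arrays lay below all 8 stage 57 arrays, where 3.31% of all tested probe sets and 0 of the 8 tested members separated by stage in either direction. For dhrs3.L the averaged log2 difference was -1.65 (SE 0.30, limma adjusted p = 0.00164), and without the 3 arrays -1.53 (limma adjusted p = 0.00651). At 5 days alone it was -1.74 (SE 0.43, limma adjusted p = 0.0202), and this call was lost in a fit to the compared groups alone (limma adjusted p = 0.0532). It was also lost without replicate 3 or 4 of stage 53 at 5 days (-1.66 and -1.33, limma adjusted p = 0.0632 and 0.072). Leaving out replicate 1 of stage 57 at 5 days gave -1.43 (limma adjusted p = 0.0534).

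The target gene tgm2, for tissue transglutaminase, was lower at stage 53 in both copies at 5 days. At 5 days tgm2.L gave 735.5, 395.7, 377.4 and 329.9 at stage 53, against 2101.7, 2953.4, 987.8 and 1003.9 at stage 57, with a log2 difference of -1.85 (SE 0.43, limma adjusted p = 0.0148). At 5 days tgm2.S gave 613.3, 520.9, 710.4 and 395.8 at stage 53, against 1255.6, 832.1, 2762.0 and 2458.7 at stage 57, with a difference of -1.58 (SE 0.39, limma adjusted p = 0.0208). The groups of both copies were separate at 5 days, as were those of 18.5% of all tested probe sets, and overlapped at 1 day. Mean log2 signal at 1 day was 10.77 at stage 53 and 10.92 at stage 57 for tgm2.L. For tgm2.S it was 9.38 and 10.1. With both days averaged, tgm2.L was 2.01-fold lower (limma adjusted p = 0.0318), a call lost in 9 of 16 fits that left out a single array, with log2 differences from -0.99 to -0.85 (limma adjusted p from 0.0519 to 0.0684). Those arrays were replicates 2 and 3 of stage 53 at 1 day, 2, 3 and 4 of stage 53 at 5 days, 1 and 2 of stage 57 at 1 day, and 1 and 2 of stage 57 at 5 days. The 5-day call of tgm2.L was lost without replicate 4 of stage 53 at 5 days (-1.72, limma adjusted p = 0.0565). That of tgm2.S was lost without replicate 2 or 4 of stage 53 at 5 days, or 3 or 4 of stage 57 at 5 days, with differences from -1.55 to -1.32 (limma adjusted p from 0.0525 to 0.0806).

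The gene rarres1.L, named for its induction by a retinoid in human skin, gave 204.8, 155.9, 190.4 and 131.2 at stage 53 and 5 days, against 499.3, 364.4, 528.9 and 479.4 at stage 57. The difference was -1.46 (SE 0.30, limma adjusted p = 0.00691). Its S copy was not called and had the other sign, at 0.53 (limma adjusted p = 0.521).

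The retinol dehydrogenase gene rdh16.L was low in a single group. It gave 204.9, 224.4, 163.1 and 221.2 at stage 53 and 5 days, against 556.8, 515.2, 465.9 and 451.9 at stage 57, a difference of -1.30 (SE 0.27, limma adjusted p = 0.00741). At 1 day rdh16.L lay between 267.2 and 668.3 at stage 53 and between 408.9 and 567.8 at stage 57. The 5 genes lower at 5 days were all called without the 3 arrays too, with limma adjusted p of 0.0197 for dhrs3.L, 0.0166 for tgm2.L, 0.000544 for tgm2.S, 0.00144 for rarres1.L and 0.00717 for rdh16.L. Muscle signal was several-fold lower at stage 53 in the same arrays, and its part in these differences was not tested.

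The 2 list genes higher at stage 53 both had low signals on the 3 arrays of high beta-actin ratio. The gene rdh10.S, for the enzyme that oxidises retinol to retinaldehyde just before the aldh1a2 step, gave 3989.4, 3386.9, 5436.9 and 4278.7 at stage 53 and 1 day, against 880.3, 607.2, 613.9 and 2943.0 at stage 57. The groups of rdh10.S did not overlap at 1 day, like those of 9.19% of all tested probe sets. The difference was 2.09 (SE 0.48, limma adjusted p = 0.0267), and without the 3 arrays it was 1.39 (limma adjusted p = 0.176). This call was also lost in a fit to the compared groups alone (limma adjusted p = 0.0813) and without replicate 1, 3 or 4 of stage 53 or replicate 1, 2 or 3 of stage 57 at 1 day, with differences from 1.85 to 2.11 (limma adjusted p from 0.0604 to 0.0943). Averaged over the days, rdh10.S had 1.19 (SE 0.34, limma adjusted p = 0.0243), and 0.69 (limma adjusted p = 0.14) without the 3 arrays. That call was also lost without replicate 3 of stage 53 at 1 day, replicate 2 of stage 53 at 5 days, replicate 2 of stage 57 at 1 day or replicate 3 of stage 57 at 5 days, with differences from 1.07 to 1.13 (limma adjusted p from 0.0509 to 0.0551). At 5 days its difference was 0.29 (limma adjusted p = 0.767), and the change of the stage difference between the days was not called (-1.80, SE 0.68, limma adjusted p = 0.997).

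The gene ppard.S encodes a PPAR receptor that pairs with RXR. Its signals ran from 562.4 to 1154.6 at stage 53 and from 60.1 to 608.2 at stage 57, with those of the 3 arrays at 66.6, 60.1 and 87.9. Its averaged difference was 1.84 (SE 0.44, limma adjusted p = 0.0104), and 0.88 (limma adjusted p = 0.00403) without them, which is less than the former on the log2 scale while still called.

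**Figure D5:**
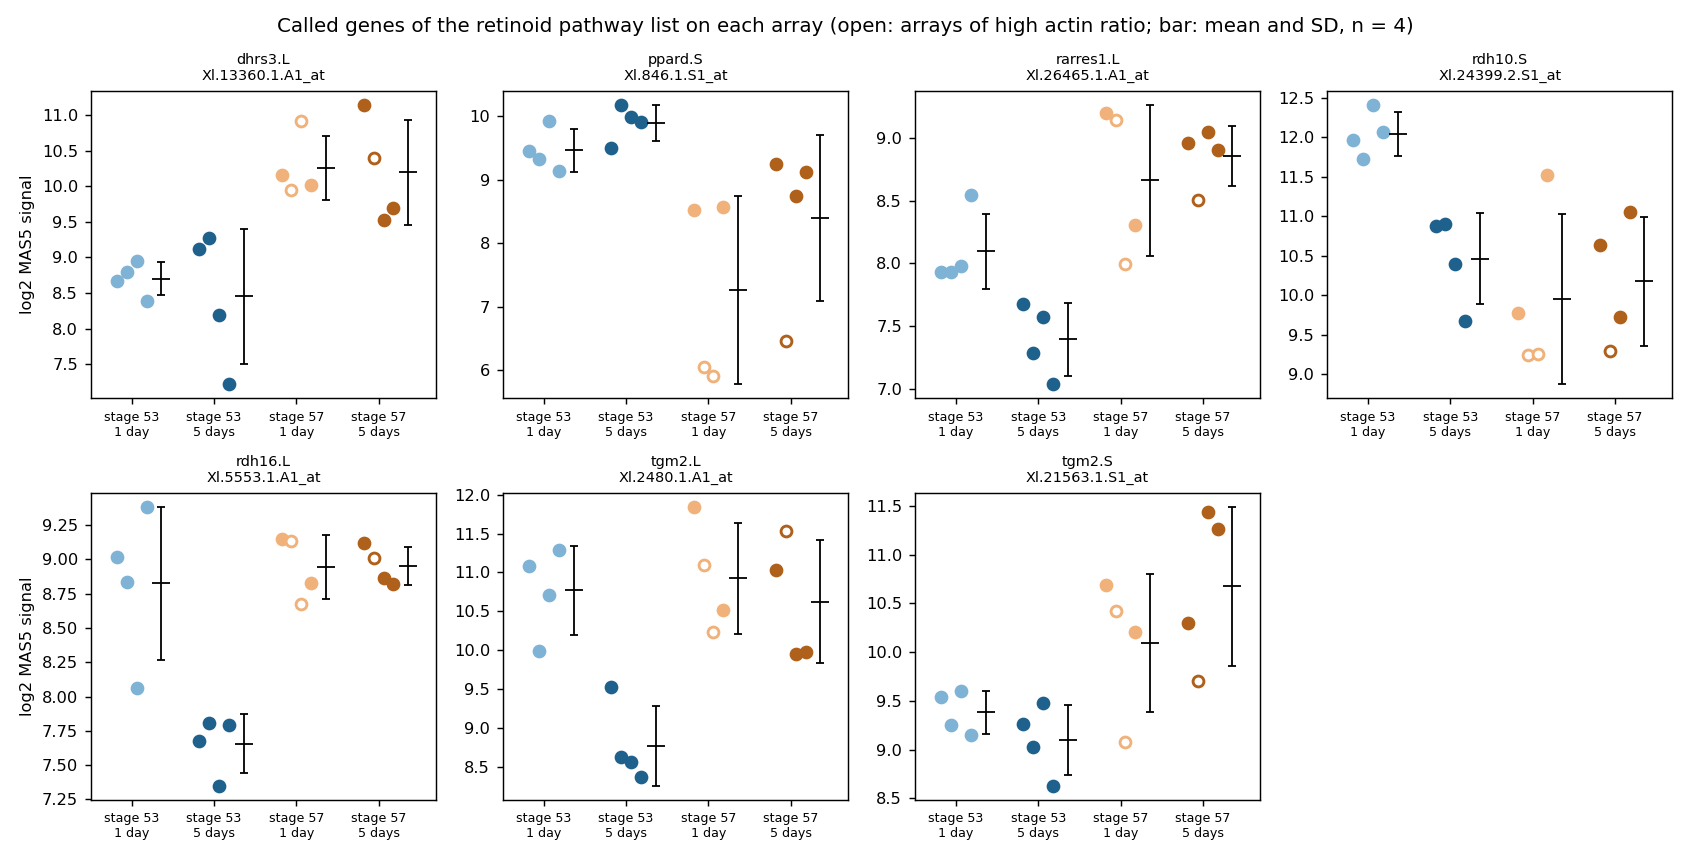
The log2 signal (vertical axis) for the retinoid pathway genes called in a stage comparison, one point per array, in the 4 groups. The dhrs3.L arrays separate completely by stage (149.0 to 619.7 against 738.8 to 2261.5).

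By role, the 11 tested genes of synthesis and breakdown held rdh10.S, rdh16.L and dhrs3.L among the called, and the 9 tested textbook targets held tgm2.L, tgm2.S, rarres1.L and again dhrs3.L, which stands in both lists. These 4 targets were called lower at stage 53, while the median log2 difference of the 9 was positive, at 0.34 at 5 days and 0.2 averaged. Without the 3 arrays, 4 of the 9 targets were called lower and 2 higher at 5 days, against 7.54% and 8.27% of all. Of 9 tested RXR partners and related receptors, ppard.S alone was called with 16 arrays. None of the 4 tested coregulators was called, where 16.6% of all probe sets were called averaged over both days. None of the 3 matched genes of supply and transport passed the filter. None of the 32 was called for the day at either stage or for the change between stages with 16 arrays. Without the 3 arrays, rdh10.S, rdh16.L and tgm2.L were lower at 5 days than at 1 day at stage 53 (1.88% of all probe sets were called lower). At 5 days ppard.S, vdr.S, hoxb4.S and meis2.L were then higher at stage 53 than at stage 57, where 8.27% of all were called higher and 7.54% lower.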

How the data were processed

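Hybridised 2-cycle amplified RNA was read on 16 Affymetrix Xenopus laevis arrays. The deposited table holds probe set intensity (signal) on a linear scale, made with MAS5 per the submitters' processing notes; the version and scaling target are not given in the sources used here. With the top and bottom 2% removed, the array means lay between 1000.1 and 1000.2. Of 15611 probe sets, 120 controls were removed. Names came from the platform annotation: 9304 probe sets had 1 symbol, 195 several and 5992 none.

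Log2 signals (no offset) above the 25th percentile of the mean were fitted in limma 3.58.1 (R 4.3.3; lmFit, contrasts, eBayes with intensity trend), group means only, on all 16 arrays. Benjamini-Hochberg adjustment covered all 11618 kept probe sets per comparison. Tables and figures used Python 3.11.15. The fit was tested on simulated data. Alternatives were median centring, quantile normalization, offsets, other filters, fits to the groups compared, leaving out each array, and leaving out the 3 arrays of high beta-actin ratio.

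All members are named. Called genes of the pathway list are named, as are the 3 nearest profiles of called members and of aldh1a2. Members and lists were chosen with earlier results of these data known. No coordinates are given because the files name no genome build.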

Additional observations from a re-analysis of the deposited data

Results flagged for a closer look

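In 48 checks of a member probe set within a group of 4 arrays, 5 had an array whose gap to its nearest neighbour passed Dixon's 95% limit for its share of the group's range. Chance flags about 1 in 20 such groups. The log2 signal was 8.71 for rarg.S on replicate 2 of stage 57 at 5 days, and 3.38 for crabp2.L on the same array, both the lowest of their group, on an array of high beta-actin ratio. It was 8.31 for rara.L on replicate 1 of stage 57 at 5 days, the lowest of its group. On replicate 2 of stage 53 at 1 day it was 3.58 for the aldh1a2.L probe set Xl.8908.1.S1_at, and on replicate 2 of stage 53 at 5 days it was 4.17 for cyp26a1.L, again the lowest of each group. The causes were not tested.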

How the results depend on the processing

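The number of arrays limits these results. The 3 calls among members lie near the threshold, the filter removed 4 members, and the lower signals carry a wide spread. No paired analysis was possible because the titles carry no shared replicate numbers. Fits to the compared groups alone were not run for the averaged difference or for the change between stages, which need all groups. Causes of the changes below were not tested.

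The member count averaged over both days was 3, and it was 1 with a filter at the 50th percentile, which leaves fewer members to test, and 1 without the 3 arrays of high beta-actin ratio, with either filter. It ran from 0 to 3 as single arrays were left out: 0 without replicate 3 of stage 53 at 1 day or replicate 2 of stage 57 at 1 day, and 1 without replicate 4 of stage 53 at 1 day or replicate 3 of stage 53 at 5 days. The member count at 5 days was 0, and it was 1 under median centring and without the 3 arrays, with either filter; it ran from 0 to 1 with single arrays left out, the 1 being without replicate 3 of stage 57 at 1 day. The other member counts were 0 in every setting run.

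For the pathway list, the count at 1 day was 1; it was 2 with an offset at the 25th percentile, 0 without the 3 arrays, and 0 to 2 with single arrays left out. At 5 days it was 5, then 9 without the 3 arrays, and 2 to 6 with single arrays left out, the lowest without replicate 4 of stage 53 at 5 days. For the day at stage 53 it was 0, then 2 in a fit to the compared groups, 3 without the 3 arrays, and 0 to 2 with single arrays left out. Over all probe sets and settings, calls numbered 132 to 563 at 1 day (296 as reported), 408 to 1837 at 5 days (856), 1384 to 2542 averaged (1931), 5 to 372 for the day at stage 53 (14), 0 to 1 at stage 57 (0) and 0 to 3 for the change between stages (3).

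No called difference of a member changed sign. Some uncalled log2 differences did. Without the 3 arrays, rxra.L was 0.35 at 1 day, 0.04 averaged, 0.54 for the day at stage 57 and -0.62 for the change between stages; rxrb.L, with the filter of all arrays, was 0.01 at 1 day and 0.34 averaged; the day at stage 57 was 0.27 for aldh1a2.L (Xl.18999.1.A1_at) and 0.25 for rxrb.S; and the change between stages was -0.33 for rxrb.S and -0.06 for rarg.S. Under quantile normalization, rara.L was -0.05 for the day at stage 57, rxrb.L -0.11 at 5 days, and the change between stages was -0.09 for rxrb.L, -0.20 for rxrb.S and -0.05 for rxra.L. Under median centring, rxrb.L was -0.08 at 5 days, and the change between stages was -0.09 for rxrb.S, -0.10 for rarg.S and -0.09 for rxra.L. With an offset at the 25th percentile, rara.L was -0.0017 for the day at stage 57, rxrb.L -0.01 at 5 days, and the change between stages -0.01 for rarg.S.

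With single arrays left out, the day difference at stage 57 ran from -0.31 to 0.13 for aldh1a2.L (Xl.18999.1.A1_at), -0.13 to 0.35 for its other probe set, -0.18 to 0.23 for rara.L, -0.06 to 0.49 for rarg.S, -0.55 to 0.43 for rxra.L, -0.42 to 0.28 for rxrb.S and -0.30 to 0.03 for rxrg.L. At stage 53 it ran from -0.19 to 0.36 for rarg.S, -0.25 to 0.08 for rxra.L, -0.70 to 0.15 for rxrb.L and -0.31 to 0.06 for rxrb.S. The change between stages ran from -0.38 to 0.25 for rarg.S, -0.51 to 0.48 for rxra.L, -0.29 to 0.85 for rxrb.L and -0.36 to 0.34 for rxrb.S. The stage difference of rxrb.L ran from -0.46 to 0.23 at 1 day, -0.47 to 0.67 at 5 days and -0.33 to 0.25 averaged.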
